A study of Mus musculus with 4 samples.

Results

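Fatty acid uptake and binding proteins carry fatty acids from lipoproteins in the blood to the inside of the adipocyte, and 10 of their genes were followed here in subcutaneous white fat of mice. They were chosen by gene symbol for their function: Lpl, Gpihbp1, Angptl4 and Lmf1 of the lipoprotein lipase system, Cd36, Slc27a1 and Slc27a2 of membrane transfer, and Fabp3, Fabp4 and Fabp5 of intracellular binding. All 10 symbols had exactly 1 row each among the 21899 rows of the table. RNA sequencing had been done on 4 libraries, 2 labelled miR-203 inhibitor and 2 labelled negative control, and each library was a pool of RNA from 3 animals. The 2 groups shared tissue and library kit. Not given in the sources used here are strain, genotype, age, sex, dose, route, duration and the sequences of the inhibitor and the control agent. The title of the series names a network of cyclic AMP, miR-203 and interferon gamma and links it to browning and glucose tolerance. An inhibitor of this kind is designed to pair with a microRNA and keep it from its messenger RNA targets.

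Lipoprotein lipase is made by adipocytes and works on the inner face of capillaries, where it splits triglycerides of lipoproteins into fatty acids. The endothelial protein GPIHBP1 carries the enzyme there and holds it in place, LMF1 helps it to fold in the endoplasmic reticulum, and ANGPTL4 inactivates it. CD36 and the SLC27A proteins, also called fatty acid transport proteins, help fatty acids to enter the cell, and the FABP proteins bind them in the cytosol. Several of these genes are classical targets of PPAR gamma, the nuclear receptor that drives adipocyte formation. Fabp3, the heart and muscle form, is also abundant in brown fat, where heat production burns fatty acids.

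None of the 10 genes passed the test between inhibitor and control, although most had lower values in the inhibitor libraries. In 8 of the 10 both inhibitor values lay below both control values, a pattern seen in 19.1% of the 12345 rows tested, and 0 had both inhibitor values above, against 33.1% of rows. The 2 with overlapping groups were Angptl4 and Fabp5. Limma, fitted over all 12345 rows, called 0 of the 10 in either direction with the Benjamini-Hochberg adjusted p set at 0.05. It called 3.48% of all rows, made up of 3.22% of rows that were higher and 0.267% that were lower, and quantile normalization changed the share of calls that were higher from 92.3% to 78.0%. At an unadjusted p under 0.05, 6 of the 10 were lower and 0 higher, against 5.95% and 13.4% of all rows. The median log2 fold change of the 10 was -0.30, against 0.07 over all rows tested. Fold changes are on the log2(FPKM + 1) scale, where FPKM is a fragment number per length of transcript and per library size.

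**Figure D1:**
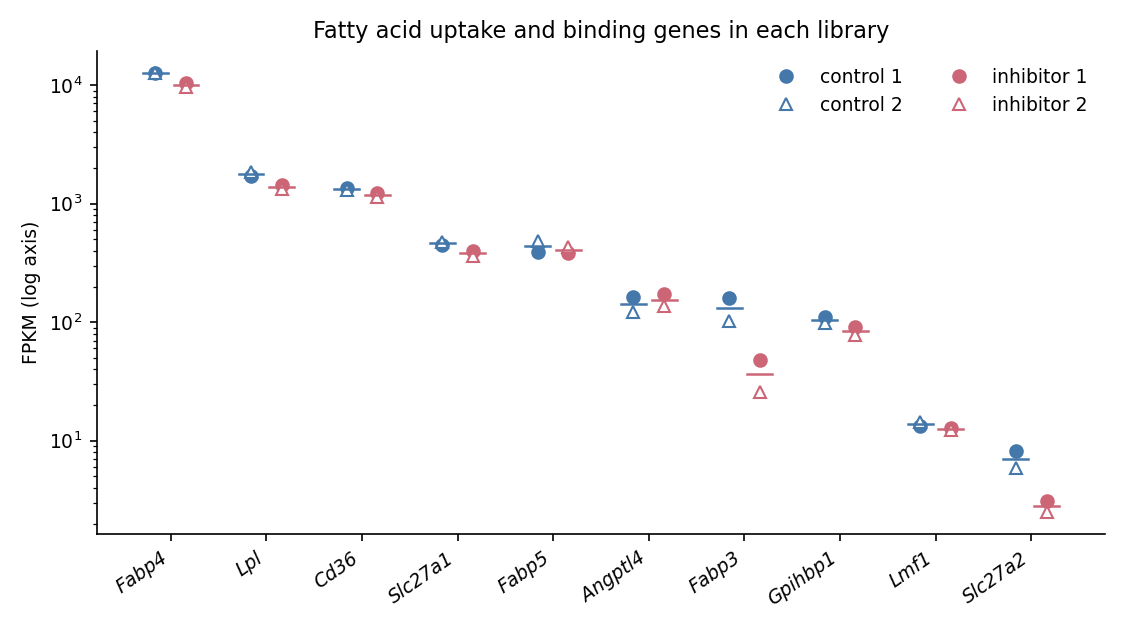
FPKM of the 10 genes (log axis), ordered by control mean, with filled circles for the first and open triangles for the second library of each group and bars for group means. Fabp4 ran from 9639.7 to 12715 FPKM, and Fabp3 and Slc27a2 show the widest gaps between the groups.

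The levels per length spanned more than 3 orders of magnitude. Fabp4 was the third-highest row of the table by mean FPKM, Lpl ranked 34 and Cd36 ranked 46. Together the 10 genes made up 2.85% and 2.83% of all FPKM in the controls against 2.42% and 2.22% under the inhibitor, and most of that was Fabp4. Slc27a1 and Fabp5 came next, with control values that overlapped each other, followed by Angptl4, Fabp3 and Gpihbp1, whose control ranges lay close together. Lmf1 and Slc27a2 had the lowest levels. Under the inhibitor both Fabp3 values stood below both Gpihbp1 values, whereas in the controls the ranges of these genes overlapped.

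The adipocyte markers matched fat tissue, and the depot in the label was not tested. Of 6 adipocyte markers (Adipoq, Plin1, Cidec, Lep, Retn and Cfd) all were abundant, with a summed level of 11355 and 12459 FPKM in the controls against 10393 and 9773.2 under the inhibitor. None of these 6 passed the test, and 4 were lower at an unadjusted p under 0.05, against 5.95% of all rows. All had both inhibitor values below both controls, against 19.1% of rows, with a median log2 fold change of -0.32. All 6 markers of heat-producing adipocytes had both inhibitor values below both controls, and limma called 5 of them lower, against 0.267% of all rows. Cox8b missed the threshold (limma adjusted p = 0.0515). Ucp1 had 781 and 649 FPKM in the controls against 287 and 270.3 under the inhibitor (log2 fold change -1.35 ± 0.12, SE, limma adjusted p = 0.00989). Control 2 nearly lacked the B cell and lymph node markers, summed over 6 genes at 1.57 FPKM, while control 1 had 294 and the inhibitor libraries 129 and 152.5. Mitochondrially encoded genes made up 14.4% and 17.5% of all FPKM in the controls against 10.2% and 12.1% under the inhibitor. Depth relative to control 1, read from the commonest ratio of low values, was 0.895 to 1.06. In bulk tissue, fewer cells of a type and less RNA per cell cannot be told apart, and this touches every result below. Each library being a pool, the spread is one between pools.

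The treatment aimed at miR-203, so its target pattern was searched first in the 10 genes. The seed, bases 2 to 8 of the mature strand, is the part of a microRNA that pairs with its targets and is in capitals in the RefSeq entry below (chromosome 12, GRCm38.p6).
mmu-miR-203-3p: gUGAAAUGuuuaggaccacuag
The complement of this seed, CATTTCA, was found in the longest annotated 3′ untranslated region of 0 of the 10 genes. These regions ran from 238 bases in Fabp3 to 2428 bases in Lpl. Over all tested genes with such a region, 16.7% of 12156 held the match, and among those of like length (within a factor of 1.25) the share ran from 2.51% for the length of Slc27a2 to 26.6% for that of Lpl. The absence covers these letters in these regions and says nothing of pairing elsewhere. No value for miR-203 was analysed here.

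Lpl, which encodes the lipase itself, had 1727 and 1859.7 FPKM in controls 1 and 2 against 1445 and 1332 FPKM in inhibitor libraries 1 and 2. Both inhibitor values lay below both controls, and the inhibitor mean was 77.4% of the control mean. The log2 fold change was -0.37 ± 0.10 (SE, limma adjusted p = 0.131), with a 95% interval of -0.62 to -0.12 before adjustment. Its position is chr8:68880491-68907448 (plus strand, GRCm38, GENCODE M21).

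Gpihbp1, the endothelial carrier of the enzyme on chromosome 15, had 111 and 99.4 FPKM in the controls against 90.4 and 77.4 under the inhibitor. The groups did not overlap, and the log2 fold change was -0.33 ± 0.11 (adjusted p = 0.216, limma). Its level in percent of that of Lpl was 6.43 and 5.34 in the controls against 6.26 and 5.81 under the inhibitor, and these groups overlapped. Of 8 endothelial markers 0 passed the test and 7 had negative log2 fold changes, against 40.0% of all rows. The other, Emcn, had 0.22. In 4 of the 8 both inhibitor values lay below both controls, against 19.1% of rows. At an unadjusted p under 0.05, 1 was lower and 0 higher, against 5.95% and 13.4% of rows. The summed level of the 8 markers was 417 and 409 FPKM in the controls against 375 and 363 under the inhibitor. Their part in the value of Gpihbp1 was not tested.

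Angptl4, the secreted inhibitor of the lipase, was the 1 member with a higher mean in the inhibitor group. It had 162 and 121 FPKM in the controls against 173 and 136 under the inhibitor. The groups overlapped, and the log2 fold change of 0.13 ± 0.18 (limma adjusted p = 0.738) had a 95% interval of -0.33 to 0.59. Its sign was not stable, at -0.075 without control 2 and -0.039 without inhibitor 1. Lmf1, the folding factor, had 13.2 and 14.5 FPKM in the controls against 12.7 and 12.3 under the inhibitor. These groups were separate by a small margin, with a log2 fold change of -0.14 ± 0.12 (limma adjusted p = 0.571).

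The wider lipoprotein lipase list held 20 further genes, of which 18 were tested with limma. Of these 1 rose and 0 fell, against 3.22% and 0.267% of all rows. At an unadjusted p under 0.05, 2 were higher and 2 lower, against 13.4% and 5.95% of all rows. The gene that rose was Lipg, which encodes endothelial lipase, a relative of lipoprotein lipase that acts mainly on phospholipids of high-density lipoproteins. Lipg had 2.55 and 2.91 FPKM in the controls against 17.6 and 29.2 under the inhibitor. Both inhibitor values stood far above both controls, with means of 2.73 ± 0.251 and 23.4 ± 8.21 FPKM (SD, n = 2) and a log2 fold change of 2.67 ± 0.25 (limma adjusted p = 0.0116). The adjusted p was 0.107 without inhibitor 1, 0.141 without inhibitor 2 and 0.0513 with no filter on low values, settings in which the log2 fold change was 3.02, 2.32 and 2.67, and over all 12 alternatives the adjusted p ran from 0.00164 to 0.141. Macrophages are another known source of this enzyme. Of 7 macrophage markers Cd68 rose and 0 fell in limma. At an unadjusted p under 0.05, 2 were higher and 1 lower, against 13.4% and 5.95% of all rows. The markers had summed levels of 695 and 763 FPKM in the controls against 894 and 818 under the inhibitor. Their part in the rise of Lipg was not tested. The most abundant genes of the list did not pass: Apoe (log2 fold change -0.11), Apoc1 (-0.02) and Lrp1 (-0.0022), which encode 2 apolipoproteins and a receptor for lipoprotein remnants. The list median was -0.02.

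**Figure D2:**
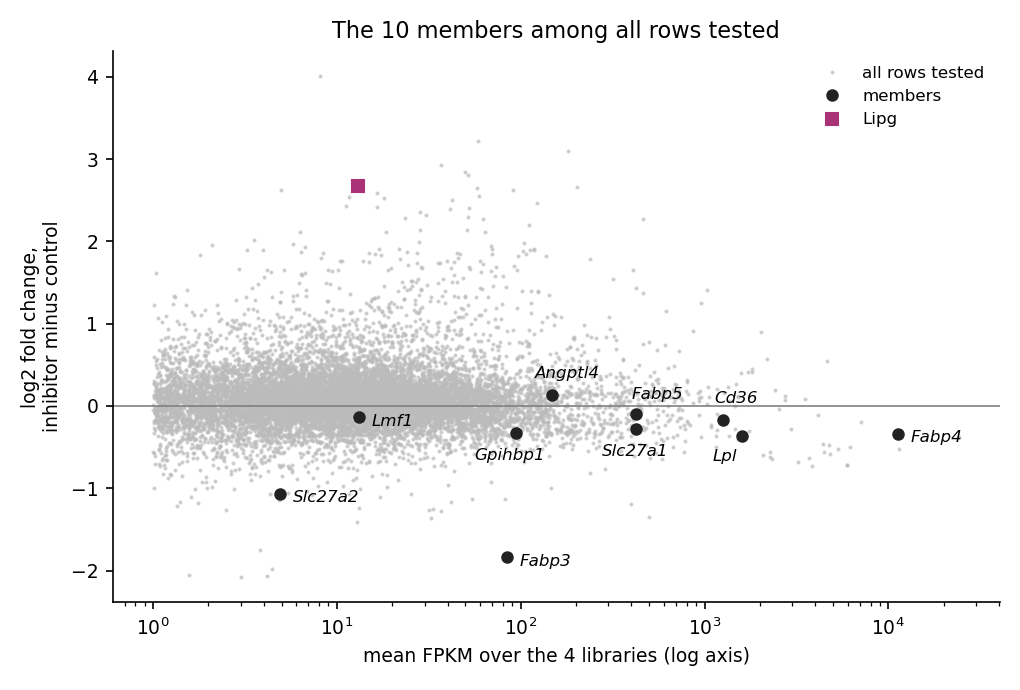
Log2 fold change of inhibitor minus control against mean FPKM (log axis) for the 12345 rows tested (grey), with the 10 members as black circles and Lipg as a square. Fabp3 lies at -1.84 and Slc27a2 at -1.07, near the lower edge of the cloud, and the other members lie between -0.37 and 0.13.

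Cd36, the scavenger receptor that takes up long-chain fatty acids, lies on chromosome 5. It had 1347 and 1311 FPKM in the controls against 1224 and 1139.9 under the inhibitor. The groups were separate, the inhibitor mean was 89.0% of the control mean, and the log2 fold change was -0.17 ± 0.09 (limma adjusted p = 0.376, 95% interval -0.40 to 0.06). Slc27a1, the fatty acid transport protein of fat and muscle that answers to insulin, had 446 and 477 FPKM in the controls against 402 and 360.1 under the inhibitor. Both inhibitor values were below both controls, and the log2 fold change was -0.28 ± 0.10 (limma adjusted p = 0.210).

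Slc27a2, best known from liver and kidney, where it also activates very long-chain fatty acids, had 8.13 and 5.93 FPKM in the controls against 3.09 and 2.51 under the inhibitor. The groups were well apart, with means of 7.03 ± 1.56 and 2.80 ± 0.410 FPKM (SD, n = 2), so that the inhibitor mean was 39.8% of the control mean. The log2 fold change was -1.07 ± 0.20 (limma adjusted p = 0.0618, unadjusted p = 0.00259), which ranked 27 from the lowest among 12345 rows and still missed the threshold. Without control 2, the control nearer to the inhibitor values, the log2 fold change was -1.27, and without inhibitor 2 it was -0.96. In these fits the lone library of its group was assumed to vary like the other group. With all 4 libraries kept, Slc27a2 passed with quantile normalization (-1.17, limma adjusted p = 0.0398) and with upper quartile scaling (-1.16, adjusted p = 0.0497). With no filter on low values its limma adjusted p was 0.147. Its position is chr2:126552407-126588243 (plus strand), and a long non-coding gene on the opposite strand, Gm26697, overlaps it. Of the 50-base stretches of its transcript 12.97% occur in that gene in reverse, and whether fragments were assigned by strand is not given in the sources used here.

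Within the family, Slc27a1 took 94.996% to 96.0% of the summed FPKM of the 6 SLC27A genes in the 4 libraries. Slc27a2 took 1.73% and 1.19% in the controls against 0.737% and 0.665% under the inhibitor, while Slc27a4 took between 2.30% and 2.63% and Slc27a3 between 0.767% and 1.18%. Slc27a5 and Slc27a6 stayed below the filter, with at most 0.392 FPKM for Slc27a5 and 0.223 for Slc27a6. In percent of Slc27a1, Slc27a2 stood at 1.82 and 1.24 in the controls against 0.767 and 0.697 under the inhibitor, which did not overlap. Coding sequences of Slc27a1 and Slc27a2 share 62.0% of aligned bases.

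Membrane transfer as a wider list gave 12 tested genes of 15, of which 0 rose and 0 fell in limma, with 0 at an unadjusted p under 0.05 in either direction. Its most abundant genes build caveolae, the membrane pockets in which CD36 gathers: Cav1 had a log2 fold change of -0.14 (limma adjusted p = 0.453), Cavin1 of 0.01 and Cavin2 of 0.05. The list median was 0.03.

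Fabp4, the adipocyte form of the binding proteins and a classical marker of fat, had 12522 and 12715 FPKM in the controls against 10361.5 and 9639.7 under the inhibitor. The groups were separate, with means of 12619 ± 136 and 10001 ± 510.4 FPKM (SD, n = 2) and a log2 fold change of -0.34 ± 0.12 (limma adjusted p = 0.218). With quantile normalization its log2 fold change was 0, since its rank among the rows tested was 2 in the first and 3 in the second library of both groups. Fabp5, the epidermal form, which adipocytes and macrophages also make, had 389 and 488 FPKM in the controls against 385 and 432 under the inhibitor. These groups overlapped, and the log2 fold change was -0.10 ± 0.14 (limma adjusted p = 0.748, 95% interval -0.44 to 0.25), and 0.068 without control 2.

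Fabp3, the heart form, showed the widest difference of the 10. It had 161 and 102 FPKM in controls 1 and 2 against 47.7 and 25.8 FPKM in inhibitor libraries 1 and 2. The lower control was still more than the higher inhibitor library, but the libraries of each group also lay far apart, with means of 131.5 ± 41.7 and 36.7 ± 15.5 FPKM (SD, n = 2). The inhibitor mean was 27.9% of the control mean. The log2 fold change of -1.84 ± 0.34 was the 5th lowest of 12345 rows, with a 95% interval of -2.71 to -0.97, yet its adjusted p of 0.0612 (limma, unadjusted p = 0.00254) missed the threshold. With all 4 libraries kept, its settings past the threshold included the adipocyte marker scaling described below (log2 fold change -1.57, limma adjusted p = 0.0301). That scaling was added after the values were seen, and limma called 1092 genes higher with it, against 397 with FPKM as deposited. With no filter on low values the limma adjusted p was 0.158. Without control 2, the control nearer to the inhibitor values, the log2 fold change was -2.17, and without inhibitor 2 it was -1.41. In these fits the lone library of its group was assumed to vary like the other group.

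Skeletal muscle also makes Fabp3. The 6 muscle markers with a row (Ckm, Myh1, Myh2, Myh4, Tnnt3 and Mb) summed to 1.66 and 3.91 FPKM in the controls against 2.65 and 3.74 under the inhibitor, with overlapping groups, and their part in the value of Fabp3 was not tested. The markers of heat-producing fat were ordered by group as Fabp3 was, with a summed level of 1513 and 1392 FPKM in the controls against 704 and 632 under the inhibitor, and their part in the value of Fabp3 was not tested.

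The position of Fabp3 is chr4:130308595-130315463 (plus strand, GRCm38, GENCODE M21). Its pseudogene Fabp3-ps1 also has a row, with 4.68 and 3.13 FPKM in the controls against 1.71 and 0.491 under the inhibitor, or 1.91% to 3.58% of the level of Fabp3. This copy, named after its values were seen, had a log2 fold change of -1.27 ± 0.35 (limma adjusted p = 0.135). Copy and gene took the same order over the 4 libraries. Of the 774 stretches of 50 bases in the Fabp3 transcript 37.3% occur in another gene, mostly in this copy. Reads could have been split between them, and the separate level of each is uncertain. On the opposite strand the protein-coding genes Gm10570 and Zcchc17 overlap Fabp3 by 80 and 81 bases. Whether fragments were assigned by strand is not given in the sources used here. Fabp5 shares 21.1% of its stretches with other annotated genes, most with Gm6166, and Fabp4 shares 0. Between pairs of the 3, coding sequences are 63.9% to 67.4% identical in aligned bases.

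Within its family Fabp4 took 95.4% to 96.0% of the summed FPKM of 10 FABP genes in the 4 libraries, and Fabp5 took 2.97% and 3.67% in the controls against 3.57% and 4.28% under the inhibitor. Fabp3 took 1.23% and 0.767% in the controls against 0.442% and 0.255% under the inhibitor, with no overlap. In percent of Fabp4, Fabp5 stood at 3.11 and 3.84 in the controls against 3.71 and 4.48 under the inhibitor, which overlapped. The liver, intestinal and ileal forms Fabp1, Fabp2 and Fabp6, and Fabp9, were listed at 0 in all 4 libraries. With 2 libraries a group no exact permutation test of such a ratio could pass the threshold, and none was run.

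The bases before the start site were searched for AGGTCA, the core of the motif that PPAR receptors bind, on either strand. The window of Cd36 is shown as the 1 member window that held this motif outside annotated exons. It covers the 250 bases before the RefSeq start, at chr5:17835897-17836146 on the minus strand (GRCm38.p6), 5′ to 3′, and capitals mark TGACCT, the reverse complement of AGGTCA.
Cd36: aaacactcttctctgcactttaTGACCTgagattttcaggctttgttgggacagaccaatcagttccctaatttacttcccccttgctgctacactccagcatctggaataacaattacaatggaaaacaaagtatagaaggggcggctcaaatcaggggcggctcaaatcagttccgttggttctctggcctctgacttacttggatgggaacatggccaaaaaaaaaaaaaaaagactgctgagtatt
Windows were held for 5 of the 10 members (Cd36, Fabp3, Lmf1, Slc27a1 and Slc27a2), with 7 windows in all. AGGTCA on either strand occurred once in Slc27a2, with its first base at -220 from the start, and once in Cd36, at -228, against 14% of 32851 windows of all genes. The direct repeat AGGTCANAGGTCA, the full PPAR response element, each copy of which also counts as AGGTCA, occurred in 0 of the 7 windows and in 0.0335% of all windows. In GENCODE M21, 4 of the 7 windows hold bases of an exon of their own gene: that of Slc27a2 with all 250, that of Fabp3 with 143, that of Lmf1 with 89 and 1 of Slc27a1 with 102. The Cd36 window holds none but lies inside the annotated span of the gene (chr5:17781690-17888801), downstream of its outermost start. A match of letters is a description, and no match says only that these letters were not in the window.

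Inside the cell, fatty acids are bound, and joined to coenzyme A by the ACSL enzymes. Of 16 further genes of binding and activation 6 were tested, and 0 rose and 0 fell in limma. At an unadjusted p under 0.05, 2 were lower and 0 higher, against 5.95% and 13.4% of all rows. The abundant ones were Dbi, which binds acyl-coenzyme A, with a log2 fold change of -0.31 ± 0.10 (limma adjusted p = 0.176), and Acsl1, the main acyl-coenzyme A synthetase of fat. Acsl1 had 862 and 942 FPKM in the controls against 667 and 671 under the inhibitor. Its log2 fold change was -0.43 ± 0.09 (limma adjusted p = 0.0777), and -0.49 without control 1. Acsl5 had 0.19. The other 10 genes were below the filter.

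Among 13 regulators of these genes, all tested, 0 rose and 0 fell in limma. At an unadjusted p under 0.05, 4 were lower and 0 higher, against 5.95% and 13.4% of all rows. One of these 4 was Ppargc1a, a coactivator of PPAR receptors named after its values were seen. It had a log2 fold change of -0.97 with all libraries (limma adjusted p = 0.223) and of -1.44 without control 1. Pparg, the nuclear receptor named above, had 103 and 118 FPKM in the controls against 114 and 115 under the inhibitor, so its groups overlapped (log2 fold change 0.05 ± 0.10, limma adjusted p = 0.810). Cebpa, its partner in adipocytes, had a log2 fold change of -0.27, and Vegfb, a growth factor proposed to steer fatty acid transport across endothelium, of -0.35 (limma adjusted p = 0.107). The regulators had a median of -0.25. Over the 4 lists, 49 of 64 genes were tested, with a median of -0.02. In limma 1 was higher and 0 lower, against 3.22% and 0.267% of all rows. Unadjusted p values under 0.05 went with 2 higher and 8 lower genes, against 13.4% and 5.95% of all rows.

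The members were then set beside the adipocyte markers. The median log2 fold change of the 10 genes, -0.30, was close to that of the 6 markers, -0.32, among which Plin1, a coat protein of lipid droplets, had -0.35 and Adipoq, which encodes adiponectin, -0.29. As an alternative added after the values were seen, each library was scaled so that these 6 markers had an equal median, which moved the median of all rows tested from 0.07 to 0.31. On that scale Lpl had -0.09, Gpihbp1 -0.05 and Fabp4 -0.06. Slc27a1, Cd36, Lmf1 and Fabp5 had 0.00098, 0.11, 0.12 and 0.18, turned from negative to positive. With this scaling as without it, 9 of the 10 members lay below the median of all rows tested. Angptl4, at 0.13 with FPKM as deposited, had 0.41 on that scale (limma adjusted p = 0.193). Fabp3 still had -1.57 (limma adjusted p = 0.0301) and Slc27a2 -0.85 (limma adjusted p = 0.0692). Over the 12 alternatives Fabp3 ranged from -2.27 to -1.41 and Slc27a2 from -1.29 to -0.85.

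**Figure D3:**
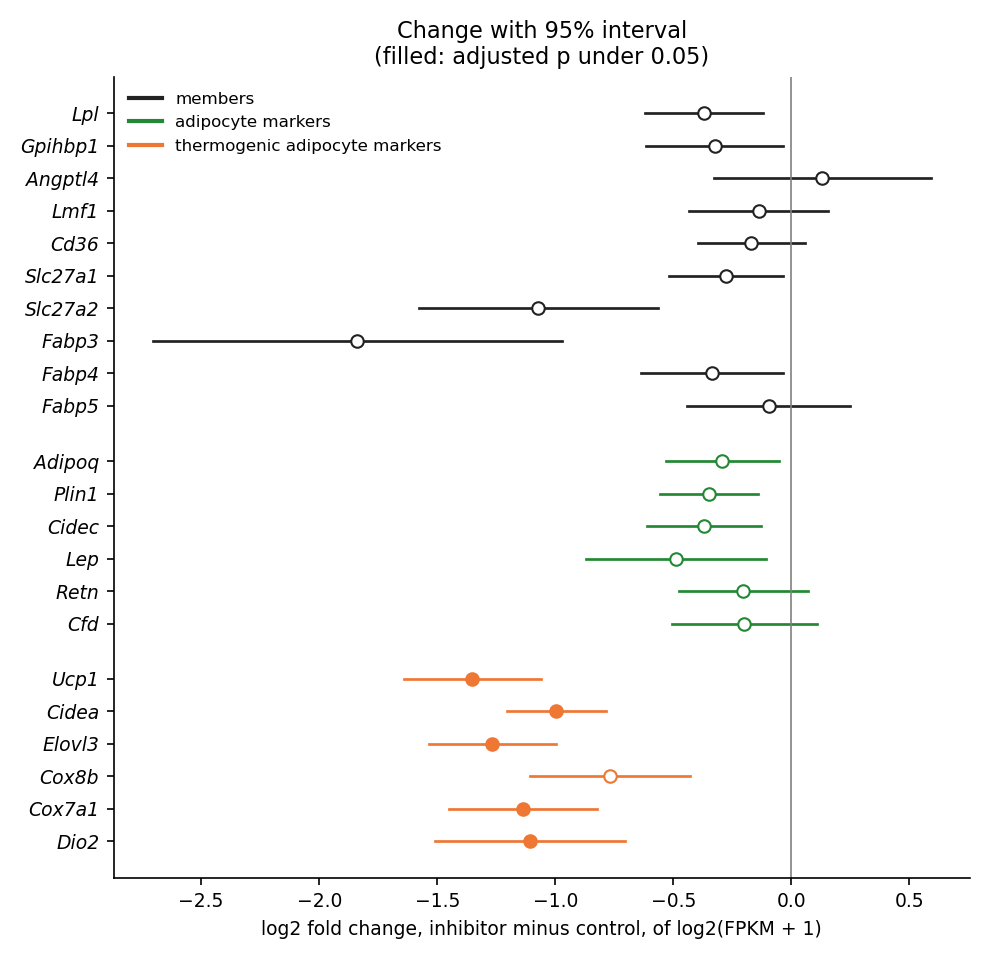
Log2 fold change of inhibitor minus control with its 95% interval for the 10 members, 6 adipocyte markers and 6 markers of heat-producing adipocytes, filled where the adjusted p was under 0.05. The values of most members lie beside those of the adipocyte markers, and Fabp3 and Slc27a2 lie in the range of the third group or below it.

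**Figure D4:**
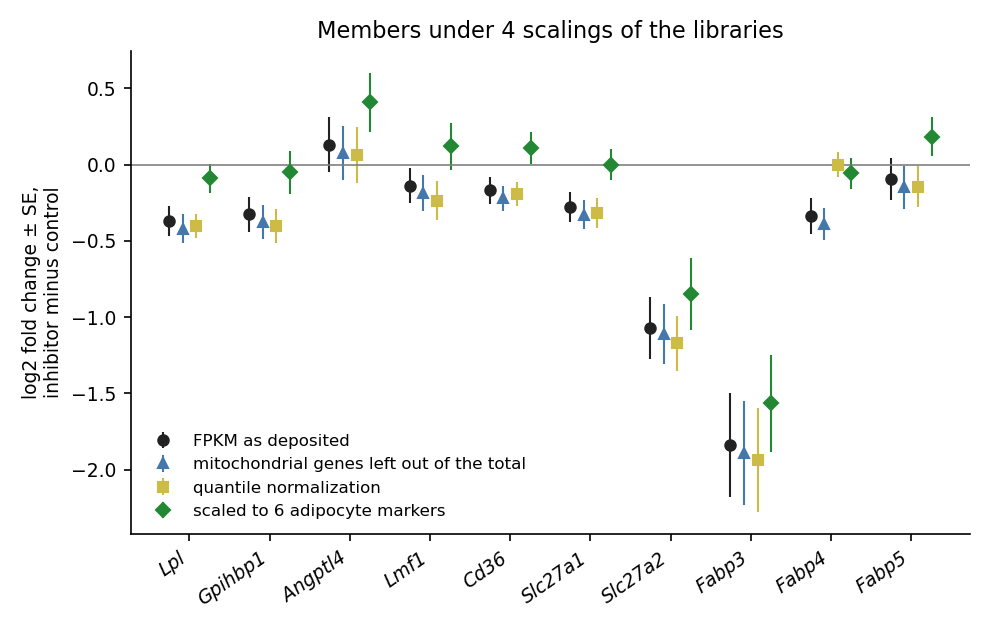
Log2 fold change ± SE of the 10 members with FPKM as deposited, with mitochondrial genes left out of the total, with quantile normalization and with the 6 adipocyte markers set equal. Fabp3 and Slc27a2 stayed below 0 under all 4, while Lmf1, Cd36, Slc27a1 and Fabp5 were above 0 on the adipocyte marker scale. On that scale the median of all rows tested was 0.31.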

How the data were processed

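RNA was sequenced from subcutaneous white fat, with directional libraries from total RNA per the labels' protocols. The submitters' processing notes name TopHat, TopHat2 2.0.11, Cufflinks 2.1.1 and build mm10. Not given in the sources used here are annotation, settings, filters and use of strand. FPKM values as deposited by the authors, named so per the file headers, are scaled to transcript length and library size, so abundant transcripts lower all others. FPKM keeps no counts, and absolute depth is unknown. Relative depth came from the commonest ratio to control 1 among values under 0.3 FPKM.

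The 12345 of 21899 rows whose mean reached 1 FPKM were tested as log2(FPKM + 1) with limma 3.58.1 in R 4.3.3 (lmFit, eBayes with a trend, two-sided, Benjamini-Hochberg over all rows, threshold 0.05), with 2 residual and 5.29 total degrees of freedom. Groups came from the sample titles. Genes with a newer symbol were matched by identifier, and Acta1 was not analysed here. Lists get counts and medians and no test of their own. The members, lists and tests were chosen with earlier results of these data known. All members are named, with the genes of each list past the threshold and its 3 most abundant. Alternatives were another pseudocount, filter, scaling, trend, a replicate block and each library left out. The fit was tested on simulated data. Sequences are from RefSeq (GRCm38.p6) and GENCODE M21 transcripts.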

Additional observations from a re-analysis of the deposited data

How the results depend on the processing

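The genes called over all rows, 397 higher and 33 lower, became 122 and 10 with no filter, and 215 and 11 with no trend. They became 1092 higher and 13 lower with the adipocyte marker scaling chosen after seeing the data. The lower calls were 92 with quantile normalization, 55 with upper quartile scaling and 53 with mitochondrial genes left out of the total. Leaving out 1 library gave 0 to 687 higher and 0 to 98 lower, and the 0 came without inhibitor 1 and without inhibitor 2, where the lone library was assumed to vary like the controls. The members called lower went from 0 to 1 with quantile normalization, upper quartile scaling and adipocyte marker scaling, and to 0 to 2 with 1 library left out. Members called higher stayed at 0 under all 12 alternatives. The wider lists had 1 gene higher and 0 lower, with 0 higher with no filter and 0 to 2 higher and 0 to 2 lower with 1 library left out. The cause of these shifts was not tested.

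Whether replicate numbers pair the libraries is not given in the sources used here. Differences within the 2 groups correlated at Pearson's r = -0.0058 over 12345 genes, so no shared replicate effect was seen over all genes. This cannot show that the libraries were unpaired. With a replicate block the fit called 21 genes lower and 1 member lower, Fabp3 (adjusted p = 0.00725).

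The log2 fold changes that changed sign were Angptl4 (-0.075 without control 2, -0.039 without inhibitor 1, 0.34 without control 1), Fabp5 (0.068 without control 2, 0.18 with adipocyte marker scaling, -0.26 without control 1), and Lmf1, Cd36 and Slc27a1 with that scaling (0.12, 0.11 and 0.00098). The log2 change of the ratio of Gpihbp1 to Lpl was 0.041, and ran from -0.093 without control 2 to 0.17 without control 1, with -0.013 without inhibitor 1. With no counts, the precision that depth gives to low genes such as Slc27a2 cannot be stated.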

Other observations

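Among the genes that serve the passage of fatty acids through capillaries, the pair of transcription factors known to drive Cd36 in endothelial cells had unlike values, and both are described because their values were seen. Tcf15 had 14.7 and 18.8 FPKM in the controls against 11.5 and 9.82 under the inhibitor, with a log2 fold change of -0.60 ± 0.16 (limma adjusted p = 0.135). Meox2 had 12.0 and 12.5 FPKM in the controls against 11.6 and 13.3 under the inhibitor, with a log2 fold change of 0.01 ± 0.12 (limma adjusted p = 0.960). The inhibitor and control values of Tcf15 did not overlap and those of Meox2 did, and the difference between the genes was not tested. Pcsk6, a protease that can cleave lipoprotein lipase, was also named after its values were seen. It had 24.3 and 22.2 FPKM in the controls against 18.4 and 15.1 under the inhibitor (log2 fold change -0.45 ± 0.13, limma adjusted p = 0.161). Furin and Pcsk5, also on the lipoprotein lipase list, had log2 fold changes of -0.11 and -0.12.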
